A study of Mus musculus with 8 samples.

Results

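Selenoproteins carry selenocysteine, an amino acid inserted at UGA codons that would otherwise end translation. Selenocysteine is made on its own transfer RNA, tRNA-Sec, and is brought to the ribosome by a dedicated elongation factor that works with a protein bound to a loop in the messenger RNA. The family holds antioxidant and redox enzymes, deiodinases that activate or inactivate thyroid hormone, and proteins of the endoplasmic reticulum. When selenocysteine supply is short, the messenger RNAs of some selenoproteins are known to be degraded while those of others persist.

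The question asked of these genes comes from 1 transcript. Trnau1ap, which encodes a protein that binds tRNA-Sec, was low in mouse embryos homozygous for a low-expression allele of Ott1. Ott1, now named Rbm15, encodes a nuclear RNA-binding protein. The list of 30 genes, 24 selenoproteins and 6 genes of selenocysteine synthesis and insertion, was made by gene function, and the fall of Trnau1ap was the reason for asking. None of the 30 genes was picked for its own values.

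Whole embryos from matings of carriers were taken at stage E11.5, and each of the 8 arrays holds total RNA of 1 embryo. There were 3 homozygous embryos (numbers 2, 7 and 16), 3 heterozygous embryos (numbers 3, 10 and 15) and 2 wild type embryos (numbers 11 and 13). The sources used here give no strain, sex or litter for the embryos and do not say how the allele was made. No probe was matched to Rbm15, so the labels could not be checked on the altered gene itself. All 9 erythroid markers with a probe were above background on all 8 arrays, as were 9 of the 11 liver markers with a probe. The same held for 5 of the 6 yolk sac and visceral endoderm markers with a probe. Detection of these markers does not settle which tissues were held or the stage. In whole embryos, fewer cells of a type and less RNA per cell cannot be told apart.

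Of the 30 genes, 24 had a probe, 1 each, among the 34967 gene probes of the array. No probe was matched to Dio1, Selenot, Selenoh, Pstk, Secisbp2 or Secisbp2l, and these 6 genes were not analysed here. The Msrb1 probe, for a methionine sulfoxide reductase, was masked on every array. The probe for Dio3, which inactivates thyroid hormone, was above background in homozygous embryo 16 and heterozygous embryo 10 alone and did not pass the filter on dim probes. Its log2 levels were 4.20, 3.81 and 4.93 in homozygous embryos, 4.21, 5.19 and 4.50 in heterozygous embryos, and 4.59 and 3.77 in wild type embryos. The remaining 22 genes were above background on all 8 arrays and were tested, and none of their spots was saturated. They comprise 19 of the 24 selenoproteins and 3 of the 6 genes of synthesis and insertion. All values are log2 of quantile-normalized intensity, and a difference is the homozygous mean minus the mean of the 5 other embryos unless another comparison is named. One probe's level says nothing about the level of another gene, so genes are compared by their differences only.

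The promoters of the genes were searched for 1 motif. NRF2, a transcription factor that answers oxidative stress, binds antioxidant response elements, and several of its targets were measured beside the selenoproteins. The letters TGACNNNGC, a core form of the element, were searched on both strands from 250 bases before to 50 bases after each gene start in RefSeq promoter windows of GRCm38.p6. The letters were in 12.4% of all 32851 windows. Of the 30 genes 29 had a window, Sepsecs being the other, and 2 of the 29 had a match, against 14% of the 27025 genes searched. The 2 windows are shown because they place the match relative to the start of a gene measured here, with the matched letters in capitals. The Selenok window is chr14:29968130-29968429 on the plus strand, with the match beginning 44 bases before the start. The Txnrd1 window, 1 of several for that gene, is chr10:82858956-82859255 on the plus strand, with the match on the opposite strand, beginning 92 bases before the start as read along the gene.
Selenok: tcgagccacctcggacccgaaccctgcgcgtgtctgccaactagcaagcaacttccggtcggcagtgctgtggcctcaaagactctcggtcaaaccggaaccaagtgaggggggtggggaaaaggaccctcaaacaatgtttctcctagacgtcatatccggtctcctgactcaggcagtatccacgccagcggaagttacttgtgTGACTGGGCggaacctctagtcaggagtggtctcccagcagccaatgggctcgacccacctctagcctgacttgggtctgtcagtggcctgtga
Txnrd1: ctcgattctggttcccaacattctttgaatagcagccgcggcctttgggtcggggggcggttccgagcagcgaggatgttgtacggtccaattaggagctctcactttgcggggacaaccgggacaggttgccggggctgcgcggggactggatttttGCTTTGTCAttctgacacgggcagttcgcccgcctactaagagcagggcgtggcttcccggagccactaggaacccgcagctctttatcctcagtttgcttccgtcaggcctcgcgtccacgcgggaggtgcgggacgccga
A match describes letters and is not a shown binding site. The Selenok and Txnrd1 differences were −0.22 and −0.21, and neither passed the test.

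None of the 22 genes changed in any of the 4 genotype comparisons at an adjusted p of 0.05 (limma, Benjamini-Hochberg over all tested probes). Between homozygous and other embryos 0.107% of 23388 probes passed, 25 in all. The smallest adjusted p among the 22 genes was 0.163, for Selenof, and the largest was 0.99, for Dio2. At an unadjusted p of 0.05, 6 of the 22 genes passed, 2 with higher and 4 with lower levels in homozygous embryos, or 27.3% against 20% of all tested probes (6.63% higher and 13.4% lower). Signs were positive for 7 genes and negative for 15, against 39.8% and 60.2% of all probes.

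The median difference of the 22 genes was −0.09, against −0.06 for all tested probes. For the 19 selenoproteins alone the median was −0.07. The 95% intervals cover the spread between embryos under quantile normalization and leave out the choice of scaling. For 15 of the 22 genes the interval lay inside a 1.5-fold change either way. The lowest bound of any gene was −1.10 (Selenof, 0.468-fold) and the highest was 0.69 (Gpx3, 1.61-fold). A p above the threshold does not show that a level was the same, and the intervals of Gpx2 (−0.97 to 0.31) and Eefsec (−0.42 to 0.60) were wide. Under median scaling the differences of 8 of the 22 genes fell outside these intervals, all 8 on the low side, among them Gpx1 (−0.43), Gpx4 (−0.35) and Selenok (−0.57). Median scaling also moved the median of all tested probes to −0.22, and the share of all probes outside such intervals was not counted.

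**Figure D1:**
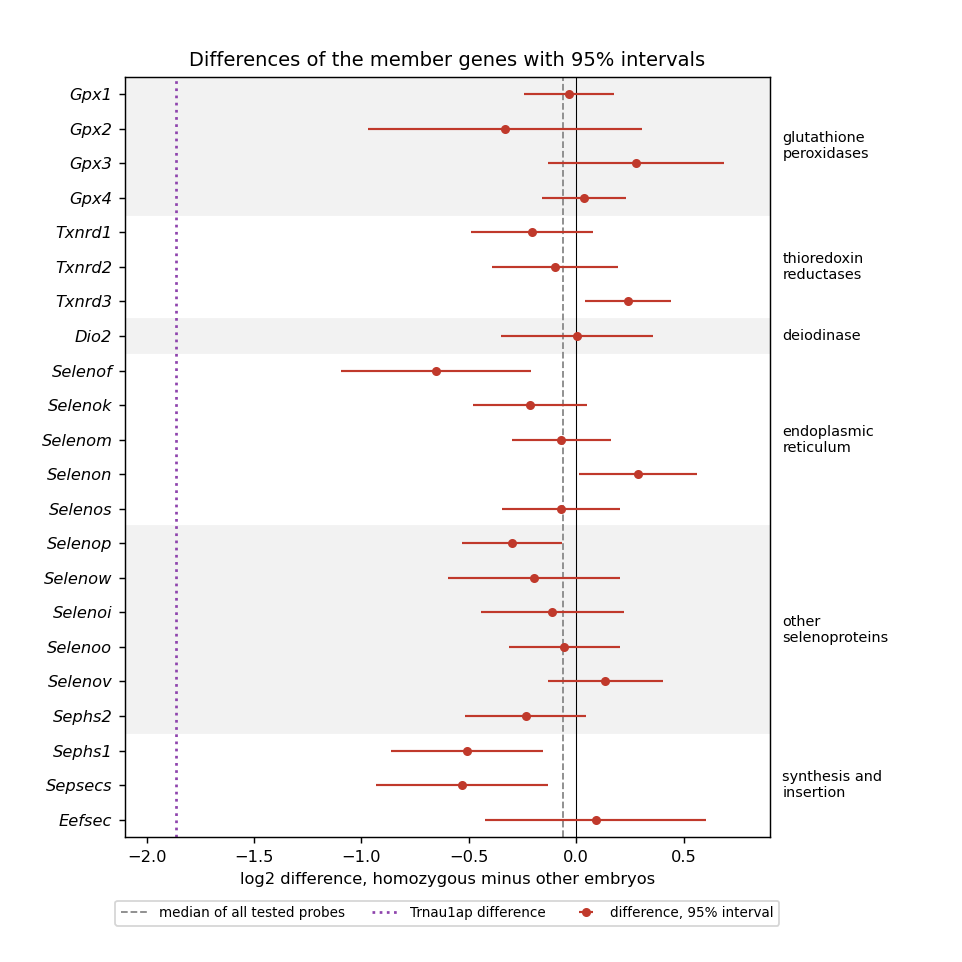
Log2 difference of each of the 22 tested genes, homozygous minus other embryos, with its 95% interval from limma (3 homozygous embryos against 3 heterozygous and 2 wild type). The dashed line is the median of all tested probes (−0.06) and the dotted line the Trnau1ap difference (−1.86), which lies below every interval. Trnau1ap was taken up because of its fall, so its place there is no result about the 22 genes.

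Trnau1ap (probe GE38423) read 8.51, 8.58 and 8.54 in the homozygous embryos, against 10.39, 10.65 and 10.18 in heterozygous and 10.49 and 10.31 in wild type embryos. The 3 homozygous values lay within a narrow band below all 5 others, and the difference was −1.86, which is 3.63-fold lower. It is given without a test because it prompted the question. The lower interval bound of all 22 selenoprotein and synthesis genes lay above this difference. Because Trnau1ap was taken up for its fall, this is no result about the 22 genes, and the share of all probes was not counted.

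Other proteins that act on tRNA-Sec, on selenoprotein messenger RNA or on selenium supply were measured with Trnau1ap. Of 12 such genes, Trnau1ap included, 10 had a probe, and 8 beside Trnau1ap were tested. None of these 8 passed the threshold in any of the 4 comparisons, and their differences ran between −0.12 (Elavl1) and 0.17 (Sars), with a smallest adjusted p of 0.608 by limma. Sars charges tRNA-Sec with serine, the first step of selenocysteine synthesis. It read 10.38, 9.94 and 10.85 in homozygous embryos, 10.15, 10.17 and 10.20 in heterozygous embryos, and 10.32 and 10.24 in wild type embryos, so homozygous embryos were both its highest and its lowest. Trit1, which modifies tRNA-Sec beside its anticodon, differed by 0.08. Scly, which releases selenium from free selenocysteine, differed by −0.03. Among proteins that bind selenoprotein messenger RNA, Rpl30 differed by −0.02, Ncl by 0.07 and Celf1 by 0.00. Rpl30 was marked on the array of embryo 16, and its value rests on 7 embryos. The 4 probes for Eif4a3, which can block insertion on some selenoprotein transcripts, differed by −0.09 to 0.07. Lrp8, a receptor for selenoprotein P, did not pass the filter on dim probes, and no probe was matched to Alkbh8 or Lrp2.

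Among genes of synthesis and insertion, Sephs1 and Sepsecs read lowest in homozygous embryos without overlap, and Eefsec did not. Of all probes with a value on every array, 9.51% read lowest without overlap. Under cyclic loess the groups overlapped for both Sephs1 and Sepsecs. Sephs1, the selenophosphate synthetase homolog that carries no selenocysteine, read 8.63, 8.51 and 8.0 in homozygous embryos, against 8.96, 8.65 and 8.95 in heterozygous and 8.84 and 9.02 in wild type embryos. The nearest homozygous and heterozygous embryos were 0.023 apart. The difference was −0.51 ± 0.16 (SE), with an adjusted p of 0.169 by limma. Leaving out homozygous embryo 16, the lowest, gave −0.32.

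Sepsecs, which converts the charged tRNA to selenocysteinyl-tRNA, read 5.10, 4.89 and 4.62 in homozygous embryos, against 5.35, 5.71 and 5.16 in heterozygous and 5.66 and 5.14 in wild type embryos. Its difference was −0.53 ± 0.18 (SE), with an adjusted p of 0.181 by limma, and the groups were separated by 0.033. Without embryo 16 it was −0.43, and over 19 alternative settings it ran between −0.64 and −0.21. The Sepsecs probe was the dimmest of the 22 tested, with a mean log2 level of 5.20. Eefsec, the elongation factor that delivers selenocysteinyl-tRNA, read 7.07, 6.95 and 6.23 in homozygous embryos, 6.70, 6.86 and 6.18 in heterozygous embryos, and 6.71 and 6.86 in wild type embryos. Homozygous embryos 2 and 7 were the highest of all and embryo 16 was near the lowest, so its difference of 0.09 became 0.36 without embryo 16. Pstk, Secisbp2 and Secisbp2l, the kinase and the binding proteins of this pathway, were not analysed here.

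**Figure D2:**
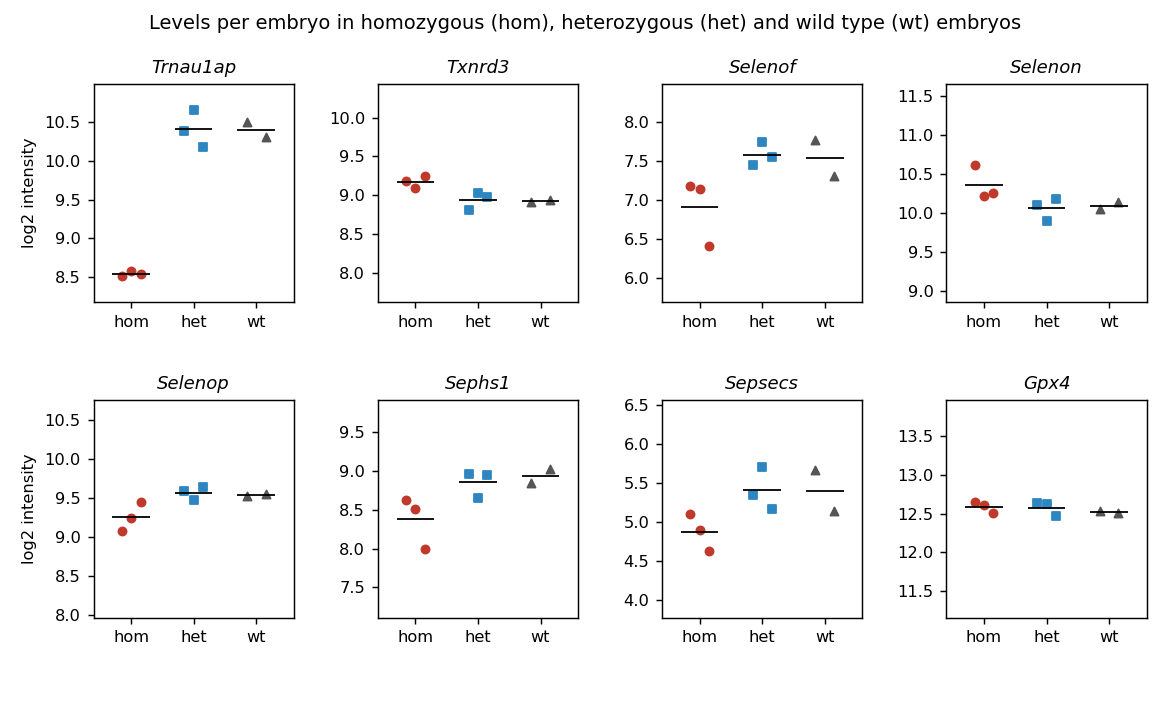
Log2 intensity per embryo of Trnau1ap, of the 6 tested genes whose homozygous embryos did not overlap the other 5, and of Gpx4 for comparison. Each panel spans the same length of log2 scale, points are embryos and black lines group means. The separation of the 6 genes is narrow beside that of Trnau1ap, which was taken up because of its fall.

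The glutathione peroxidases, which reduce hydrogen peroxide or lipid peroxides, had 4 members tested and none passed. Gpx4, which protects membranes from lipid peroxidation and is needed for embryonic development, read 12.65, 12.61 and 12.50 in homozygous embryos, against 12.63, 12.62 and 12.47 in heterozygous and 12.53 and 12.50 in wild type embryos. The genotypes overlapped throughout. The difference was 0.04, with a 95% interval of −0.16 to 0.23, the narrowest of the 22 genes. Under median scaling it was −0.35.

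Gpx1, the cytosolic enzyme, is known from other tissues as a selenoprotein whose messenger RNA is lost early when selenium is short. It read 13.30, 13.11 and 13.16 in homozygous embryos, 13.15, 13.30 and 13.35 in heterozygous embryos, and 13.16 and 13.16 in wild type embryos. Its difference was −0.03, with a 95% interval of −0.24 to 0.18. Under median scaling the difference was −0.43. Relative to the median probe it was 0.03, and −0.21 under median scaling, and it passed under neither.

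Gpx3, the secreted enzyme of plasma, read 10.67, 10.97 and 10.78 in homozygous embryos, against 10.45, 10.99 and 10.31 in heterozygous and 10.69 and 10.22 in wild type embryos. The highest embryo of all was a heterozygote, so the groups overlapped, and the difference was 0.28 ± 0.18 (SE), or −0.02 under median scaling. Relative to the median probe the Gpx3 difference was 0.34, and 0.199 at the lowest over 19 alternative settings. Gpx2, the epithelial enzyme, had the widest spread of the 22 genes within a genotype, with an SD of 0.487. It read 5.55, 6.30 and 6.96 in homozygous embryos, against 6.32, 6.78 and 6.70 in heterozygous and 6.80 and 6.42 in wild type embryos. Homozygous embryos were its lowest and its highest, and the difference of −0.33 became −0.71 without embryo 16 and 0.03 without embryo 2.

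The thioredoxin reductases pass electrons from NADPH to thioredoxin. Txnrd3, known for its part in sperm maturation, read 9.19, 9.09 and 9.24 in homozygous embryos, against 8.81, 9.03 and 8.98 in heterozygous and 8.92 and 8.93 in wild type embryos. All 3 homozygous values were above the other 5, by 0.061 at the nearest. The difference was 0.24 ± 0.09 (SE), with an adjusted p of 0.198 by limma. Under median scaling it was −0.0025, where the median of all probes was −0.22, and the separation was gone. Relative to the median probe the Txnrd3 difference was 0.30, and 0.215 at the lowest over 19 alternative settings.

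Txnrd1, the cytosolic enzyme, read 9.98, 9.84 and 9.48 in homozygous embryos, against 9.89, 10.12 and 9.92 in heterozygous and 9.93 and 10.00 in wild type embryos. Embryo 16 was its lowest and homozygous embryo 2 lay within the range of the others, with a difference of −0.21 ± 0.12 (SE). Txnrd2, the mitochondrial enzyme, differed by −0.10 ± 0.13 (SE). Dio2, the deiodinase that activates thyroid hormone, read 7.74, 7.56 and 8.12 in homozygous embryos, 7.51, 8.04 and 7.89 in heterozygous embryos, and 7.78 and 7.79 in wild type embryos. Its difference was 0.01 and the genotypes overlapped.

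Of the selenoproteins of the endoplasmic reticulum, 5 were tested and none passed. Selenof, which binds the glycoprotein-folding sensor Uggt1, had the largest difference of the 22 genes. It read 7.18, 7.14 and 6.41 in homozygous embryos, against 7.45, 7.74 and 7.55 in heterozygous and 7.77 and 7.31 in wild type embryos. All 3 homozygous values lay below the other 5, by 0.126 at the nearest. The difference was −0.65 ± 0.19 (SE), with a 95% interval of −1.10 to −0.21, and it was −0.41 without embryo 16. It was the only gene of the 22 whose difference exceeded 1.5-fold, and it stayed separated under median scaling, cyclic loess and the deposited scaled values. The share of all probes that stayed separated in this way was not counted.

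Selenon, known for its role in calcium handling and in muscle, read 10.62, 10.21 and 10.25 in homozygous embryos, against 10.10, 9.89 and 10.18 in heterozygous and 10.05 and 10.14 in wild type embryos. The homozygous values were the 3 highest, by 0.034 at the nearest, and the difference was 0.29 ± 0.12 (SE), with an adjusted p of 0.236 by limma. It was 0.16 without homozygous embryo 2, and 0.0064 under median scaling, where the groups overlapped. Relative to the median probe the Selenon difference was 0.35, and 0.224 at the lowest over 19 alternative settings. Selenon and Trnau1ap both lie on chromosome 4, with 62 protein-coding genes between them in RefSeq order, and their differences had opposite signs under quantile normalization.

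Selenok and Selenos act in the removal of misfolded proteins from the reticulum. Selenok read 11.55, 11.74 and 11.40 in homozygous embryos, against 11.69, 11.60 and 11.83 in heterozygous and 11.82 and 11.96 in wild type embryos, with overlap between the groups. Its difference was −0.22 under quantile normalization and −0.57 under median scaling, where the homozygous values lay below the others by 0.042, and it passed under neither. Selenos differed by −0.07 ± 0.12 (SE), and both its highest and its lowest embryo were homozygous. Selenom, a thioredoxin-like protein of the reticulum, differed by −0.07 ± 0.10 (SE). Of the genes whose products work with these proteins 10 were tested and none passed, with a median difference of −0.07. Vcp, the segregase that Selenos recruits, differed by −0.08, and Uggt1 by −0.11.

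**Figure D3:**
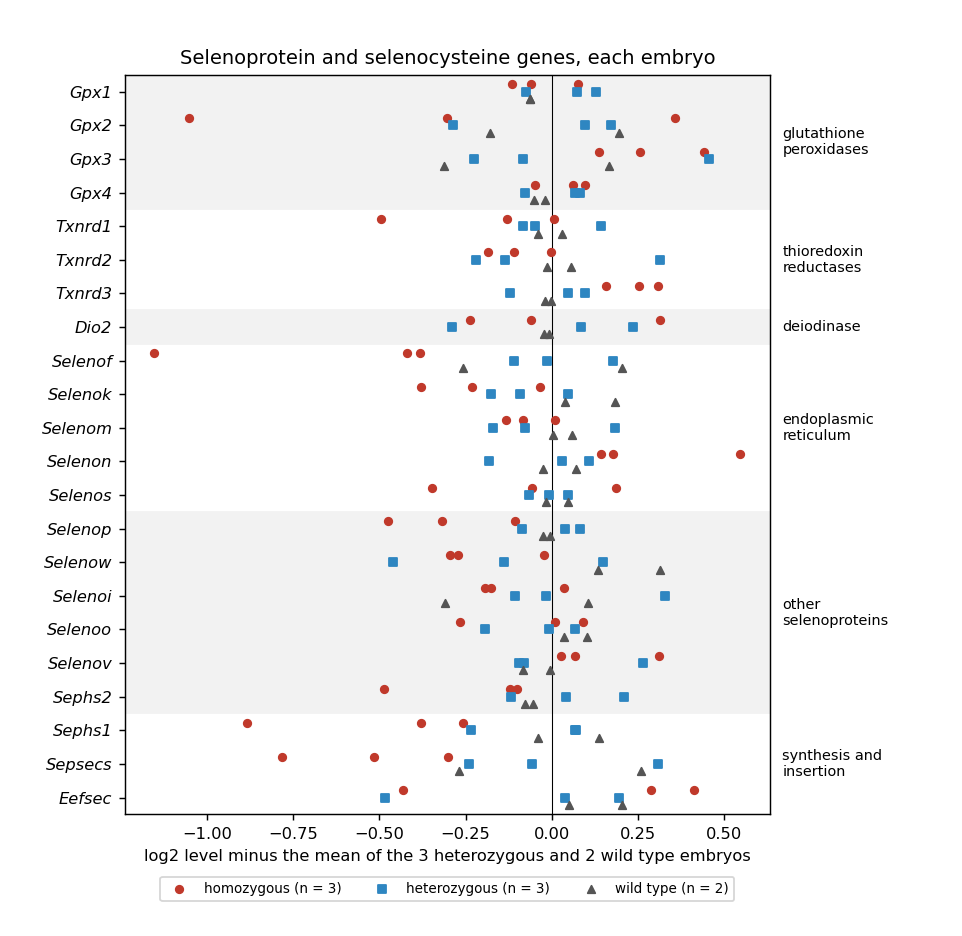
Each embryo's log2 level of the 22 tested genes minus that gene's mean over the 3 heterozygous and 2 wild type embryos, with the genes grouped by role. Red circles are homozygous, blue squares heterozygous and grey triangles wild type embryos. The homozygous points fall on both sides of 0, and the farthest low values are those of embryo 16 for Selenof and of embryo 2 for Gpx2.

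Selenop, made chiefly by the liver, carries selenium through plasma to other tissues. It read 9.08, 9.24 and 9.45 in homozygous embryos, against 9.60, 9.47 and 9.64 in heterozygous and 9.53 and 9.55 in wild type embryos. The homozygous values lay below the others by 0.020 at the nearest, and the difference was −0.30 ± 0.10 (SE), with an adjusted p of 0.186 by limma. Leaving out embryo 16, the highest of the homozygous embryos, gave −0.40, and leaving out embryo 2, the lowest, gave −0.21. Under cyclic loess the groups overlapped for Selenop. The summed intensity of 10 liver markers was 4926, 4205 and 3948 in homozygous embryos 2, 7 and 16, between 4966 and 8084 in heterozygous embryos, and between 7453 and 8657 in wild type embryos. The homozygous sums were the lowest, and their order within the homozygous embryos was opposite to that of Selenop. Heterozygous minus wild type embryos, all 10 tested liver markers were negative and Selenop was 0.03. A link between the liver markers and Selenop was not tested. All 10 tested liver markers had a negative difference and 0 passed, and none of the summed markers was at background in every embryo. The 10 summed and the 10 tested were not the same set. A marker with a missing value was left out of the sum, and a dim one was left out of the tests. The 2 liver markers with the highest mean, Afp and Ttr, differed by −0.84 (adjusted p 0.194, limma) and −1.26 (adjusted p 0.0855, limma). The summed intensity of 5 macrophage markers was between 181 and 201 in homozygous embryos, between 200 and 648 in heterozygous embryos, and between 539 and 614 in wild type embryos, and only 1 of the 7 macrophage markers with a probe was above background on every array. Of 6 tested macrophage markers 0 passed against all other embryos, and Fcgr1 alone passed against wild type embryos (adjusted p 0.0484, limma). The Fcgr1 probe was above background in 1 of 3 homozygous, 2 of 3 heterozygous and both wild type embryos. It was tested only through the wild type group, where it read highest. Its pass against that group is therefore no result, and no size is given. The macrophage markers with the highest mean, Lyz2 and C1qb, differed by −1.14 and −0.66, C1qb from 7 embryos because 1 homozygous spot was marked, and neither passed. The sum of 8 trophoblast and decidua markers was between 2139 and 2630 in homozygous embryos. It was between 1706 and 2236 in heterozygous embryos and between 1849 and 1908 in wild type embryos. Of the 8, 7 were tested and 0 passed, with differences of 0.44 for Krt8 and 0.39 for Dcn. Yolk sac markers summed to between 1003 and 1075 in homozygous embryos, between 951 and 1008 in heterozygous embryos, and between 1034 and 1038 in wild type embryos, and 0 of 5 tested passed, with differences of −0.06 for Dab2 and 0.39 for Sox17. Erythroid markers summed to between 6996 and 8948 in homozygous embryos, between 7353 and 7511 in heterozygous embryos, and between 7276 and 7565 in wild type embryos, and 0 of 9 tested passed, with differences of 0.19 for Alas2 and 0.04 for Tal1. The part of these markers in the Selenop values, and in those of the other 5 separated genes, was not tested.

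The other selenoproteins overlapped between the groups. Sephs2, itself a selenoprotein, makes the selenium donor for synthesis. It read 9.78, 9.42 and 9.80 in homozygous embryos, against 9.95, 10.11 and 9.79 in heterozygous and 9.83 and 9.85 in wild type embryos, with a difference of −0.24 ± 0.12 (SE). Selenow, a small thioredoxin-like protein, is also known as a transcript that falls early when selenium is short. It read 11.00, 11.25 and 10.98 in homozygous embryos, against 11.42, 10.81 and 11.14 in heterozygous and 11.41 and 11.59 in wild type embryos. The wild type values were at the upper end and the lowest was heterozygous, with a difference of −0.20 ± 0.18 (SE). Selenoi, an ethanolamine phosphotransferase, differed by −0.11, Selenoo, a mitochondrial enzyme, by −0.06, and Selenov by 0.13.

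Taking the 22 genes by separation of the groups, homozygous embryos were highest without overlap for 2 (Txnrd3 and Selenon) and lowest without overlap for 4 (Selenof, Selenop, Sephs1 and Sepsecs). Among the 21788 probes with a value on every array, homozygous embryos were highest without overlap for 4.71% and lowest for 9.51%. These counts changed with the scaling between arrays. Under median scaling none was highest and 5 were lowest, against 1.58% and 16.3% of probes. Under cyclic loess the counts were 2 and 1, against 6.34% and 6.87% of probes, and with the deposited scaled values none and 7, against 1.26% and 17.8% of probes. Over the same settings the median difference of all probes with a value on every array was −0.07 with quantile normalization, −0.22 with median scaling, −0.01 with cyclic loess and −0.26 with the deposited values. Of the 22 genes, Selenof alone was separated under all 4, and the share of all probes separated under all 4 was not counted.

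The homozygous arrays were brighter than the rest, with median intensities of 60.0, 61.9 and 84.5 against 57.8, 48.4 and 48.7 in heterozygous and 56.2 and 56.7 in wild type embryos. Brightness and genotype cannot be told apart here, and intensity scaling acts on both. Homozygous embryo 16 had the brightest array and 1634 marked probes, against 206 to 616 on the other 7. Its log2 values correlated with the others at 0.956 to 0.968, while the other 7 correlated at 0.973 to 0.990. It was the lowest of the 8 embryos for 6 of the 22 genes, and for 38.3% of all probes.

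**Figure D4:**
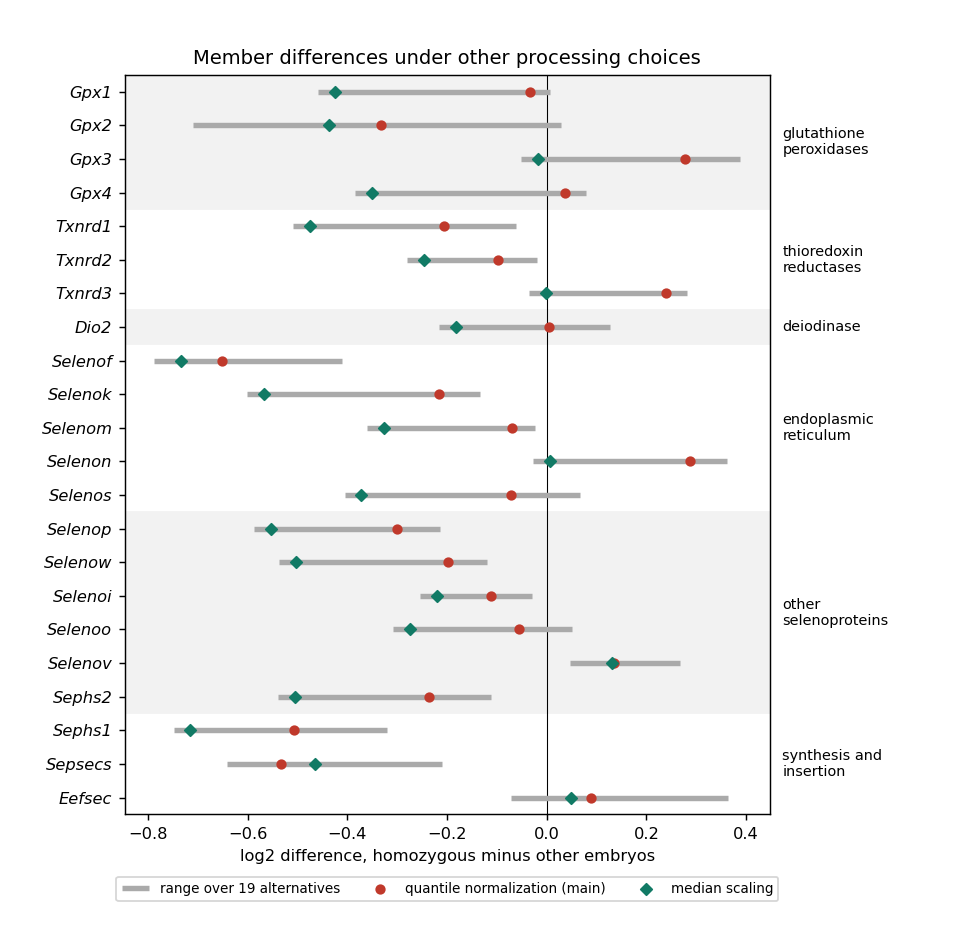
Log2 difference of each of the 22 genes, homozygous minus other embryos, with quantile normalization (red circles) and median scaling (green diamonds), and as grey bars the range over 19 alternatives, which include leaving out each embryo. Median scaling moves most genes, and the median of all probes, to lower values, and no gene passed an adjusted p of 0.05 under any of the 19.

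The genotypes were also compared in pairs. Between homozygous and wild type embryos 0.0342% of 23387 probes passed and 0 of the 22 genes did, with a smallest adjusted p of 0.288 (limma, Sephs1) and 2 genes at an unadjusted p of 0.05, against 15.3% of probes. The median difference of the 22 genes was −0.11, against −0.07 for all probes. Between homozygous and heterozygous embryos 0.0214% of probes passed and again 0 of the 22 genes, with a smallest adjusted p of 0.399 (limma, Selenof) and 4 genes at an unadjusted p of 0.05, against 11.6% of probes. Between heterozygous and wild type embryos limma called 0 of 23387 probes, or 0%, and 2.3% at an unadjusted p of 0.05. None of the 22 genes passed at that unadjusted p, and their median difference was 0.01, against −0.01 for all probes. Selenow had the largest heterozygous difference, −0.37. These comparisons share arrays with each other and with the comparison of homozygous and all other embryos.

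Genes of related function were given the same test. The cysteine counterparts of selenoproteins are enzymes of the same families that work with cysteine in place of selenocysteine, together with glutathione reductase. Of 8 listed, 7 were tested and none passed. Their median difference was −0.12, against −0.06 for all probes, and all 7 were negative, against 60.2% of all probes. Gpx8, a peroxidase of the endoplasmic reticulum, differed by −0.10 and Msra by −0.13. Msrb2, a mitochondrial methionine sulfoxide reductase, had the lowest difference of the 7 and was singled out after its values were seen. It read 8.42, 8.60 and 8.11 in homozygous embryos, against 8.87, 8.82 and 9.05 in heterozygous and 9.28 and 9.13 in wild type embryos. The groups did not overlap, and the difference was −0.65 with an adjusted p of 0.123 by limma. Gpx7 also read lowest without overlap, with a difference of −0.35 and an adjusted p of 0.184 by limma. Of all probes with a value on every array, 9.51% read lowest without overlap.

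Of 26 listed NRF2 targets and antioxidant genes, 25 were tested and none passed, with a median difference of −0.06, equal to that of all probes. Prdx2 and Txn1, a peroxiredoxin and thioredoxin itself, differed by −0.18 and −0.03. Nfe2l2, which encodes NRF2, differed by 0.05. Nqo1, a well-known NRF2 target singled out like Nfe2l2 after its values were seen, read 6.24, 6.71 and 6.0 in homozygous embryos, against 6.89, 6.71 and 7.03 in heterozygous and 7.12 and 7.12 in wild type embryos. The homozygous and heterozygous values met at 6.71, and its difference was −0.66 with an adjusted p of 0.141 by limma. Nqo1 had the lowest difference of the 25 genes, and 9 of the 25 were positive.

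Of 10 listed receptors, transporters and cofactors of thyroid hormone, the substrate of the deiodinases, 9 were tested and none passed. Their median difference was −0.41, against −0.06 for all probes. Among the 9, 4 were positive and 5 negative, and the differences ran between −0.56 and 0.91. Crym, which binds thyroid hormone in the cytosol, differed by −0.56, from 7 embryos because embryo 7 was marked, and Ncor1, a corepressor of its receptors, by 0.08.

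The spread of the 22 genes within a genotype had a median SD of 0.178, against 0.200 for all tested probes. Gpx4, with an SD of 0.0744, was among the least variable probes of the array, at the 4.5th percentile, followed by Txnrd3 at 0.0875 and Gpx1 at 0.0903. Gpx2 and Eefsec, at 0.487 and 0.369, were the most variable of the 22.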

How the data were processed

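RNA of 8 whole embryos was measured on one-colour CodeLink oligonucleotide arrays, per the labels' protocols. Each deposited file holds 1 intensity per spot, already corrected by subtracting the local background median from the spot mean, per the file headers and the values. The deposited value table holds the same intensity divided by 1 factor per array. The scanner software is not given in the sources used here.

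Control spots were left out, spots with a contamination, irregularity or mask mark were treated as missing, and saturated spots were kept. Intensities were quantile normalized, a floor was set at the 5th percentile of positive values (4.50, or log2 2.17), and values were taken to log2. The 23389 probes detected over background in every embryo of some genotype were fitted with limma 3.58.1 in R 4.3.3 (lmFit, eBayes, two-sided), with Benjamini-Hochberg adjustment over all tested probes and a threshold of 0.05. Homozygous embryos were set against the 5 others, and a model of 3 genotype means gave the pairwise comparisons. The fit of homozygous against other embryos was tested on simulated data, and the model of 3 genotype means was not. The number of arrays limits the precision of every value.

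Probes were named through RefSeq accessions in GRCm38.p6. A single symbol was found for 14763 probes, and 20204 stayed unnamed. Every member gene is accounted for. All measured tRNA-Sec partners, and of each other list the 2 genes with the highest mean and any past the threshold, are named. Msrb2, Gpx7, Nfe2l2 and Nqo1 were named beyond this rule, after their values were seen. The members, lists and tests were chosen with earlier results of these data known.

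Alternatives changed the scaling between arrays (median, cyclic loess or the deposited values), the background (normexp, offset 50), the floor (1st percentile), the filter, the treatment of marked spots, the variance model (weights per array, or a prior with trend and robustness), the covariates (Y-linked probes) and the embryos in the fit.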

Additional observations from a re-analysis of the deposited data

Results flagged for a closer look

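In heterozygous embryo 15, 2 of the 22 tested genes stood far from the other 4 embryos of the pooled heterozygous and wild type group. Selenov read 6.29 there, while the nearest of the others was 6.02. Eefsec read 6.18 there, while the nearest of the others was 6.70. The rule that picks such values marks about 1 in 20 groups by chance, and 22 genes were examined.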

How the results depend on the processing

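None of the 22 genes passed an adjusted p of 0.05 by limma in any of the 4 comparisons under any alternative run. Against all other embryos the smallest adjusted p ran between 0.094, with the Y-linked covariate, and 0.33. Differences below are relative to the median probe. The members' median difference was −0.022 and moved to −0.144 under median scaling and to −0.144 with the deposited values. Of 418 pairs of a gene and an alternative, 388 kept the direction and 30 did not, and 12 genes had no turn. Median scaling gave −0.21 for Gpx1, −0.13 for Gpx4 and −0.056 for Selenoo, and the deposited values gave −0.21, −0.13 and −0.056. Cyclic loess gave −0.018 for Gpx1 and −0.025 for Selenoo. Array weights gave −0.051 for Dio2. Selenoo was −0.0046 with normexp, −0.0098 without a filter and −0.0090 with the Y-linked covariate, which gave 0.0026 for Selenom. Leaving out 1 embryo in turn, the ranges that crossed 0 were −0.023 to 0.092 for Gpx1, −0.68 to 0.092 for Gpx2, −0.12 to 0.040 for Txnrd2, −0.13 to 0.21 for Dio2, −0.044 to 0.043 for Selenom, −0.12 to 0.13 for Selenos, −0.12 to 0.031 for Selenoi, −0.063 to 0.077 for Selenoo and −0.0071 to 0.39 for Eefsec. The cause of these turns was not tested. The count of all probes called between homozygous and other embryos was 25, and was 42 with cyclic loess, 45 with the deposited values, 85 with normexp, 6 without a filter, 50 with probes above background on all 8 arrays, 99 with array weights, 118 with a trended robust prior and 64 with the Y-linked covariate. Leaving out 1 embryo gave 5 to 314. The count was 314 without embryo 7 (homozygous), 39, 14 and 5 without embryos 10, 3 and 15 (heterozygous), and 6 and 5 without embryos 11 and 13 (wild type). Between homozygous and wild type embryos the count was 8 and ran from 0 to 186, between homozygous and heterozygous embryos it was 5 and ran from 4 to 58, and between heterozygous and wild type embryos it was 0 and ran to 3. No paired analysis was possible because the embryo numbers differ between genotypes. No slide or scan block was run, since no array number or header date in the files separates groups of arrays.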
